A study of Mus musculus with 3 samples.

Results

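Germline genes are genes known chiefly for work in primordial germ cells, meiosis or the defence of germ cells against transposons. The 10 germline genes described here, Dazl, Stra8, Sycp1, Sycp3, Prdm1, Tex19.1, Piwil2, Ddx4, Mael and Tdrd1, were listed by symbol and found by their Ensembl gene IDs among 55536 genes in total. They carry 34 of 141767 annotated transcripts. Total RNA was sequenced from F121-9, mouse embryonic stem (ES) cells that are a hybrid of Cast and 129. The 3 libraries are labelled biological replicates 1, 2 and 3, each at passage 14 and from 400 ng of RNA. They make up 1 group, with no treatment or control. Nothing in the labels says that the libraries came from separate cultures, so p-values here measure the spread of 3 libraries only, and that spread may be technical.

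In the mouse, germ cells arise from epiblast cells in which a small set of transcription factors, PRDM1 among them, shuts down the somatic programme. Later, germ cells switch on meiotic genes, such as those of the synaptonemal complex that pairs homologous chromosomes, and the genes of the piRNA pathway, in which PIWI proteins use small RNAs to silence transposons. In ES cells and in somatic tissues many such genes are kept low by DNA methylation and by a Polycomb complex, PRC1.6, whose MGA-MAX and E2F6 subunits recognise E-box and E2F-type motifs. Yet ES cells are known to transcribe some of them.

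Levels are given in TPM, which corrects for transcript length and so can be compared between genes, from the gene tables with the columns that RSEM writes (RSEM-style). The RSEM-style tables held 9765384 to 10610782 estimated counts a library. All 5 pluripotency markers were present, with means ± SD over the 3 libraries (n = 3) of 505 ± 10.9 TPM for Nanog, 495 ± 100.4 TPM for Pou5f1, 425 ± 4.24 TPM for Zfp42 and 279 ± 29.8 TPM for Sox2. Of 8 spermatid markers 0 reached 1 TPM in all libraries, with 5 at 0 counts and a summed level of 0 to 0.71 TPM, and the defining protamine Prm2 was at 0. Of 8 oocyte markers only Zp3 did, at 2.58 ± 0.570 TPM, and of 6 Sertoli and gonadal soma markers 0 did, their sum being 1.42 to 1.68 TPM. Of 8 markers of the 2-cell-like state measured, only Zscan4f did, at 2.57 ± 1.01 TPM, and its near-identical Zscan4 copies make that level uncertain. Of 11 fibroblast markers, listed for feeder cells, 3 did: Fn1 at 304 ± 40.3 TPM, Vim at 35.9 ± 5.51 TPM and Pdgfrb at 1.53 ± 0.275 TPM, while Col3a1, Postn, Lum and Dcn were at 0 counts. ES cells themselves express Fn1 and Vim. The part of such other cells in the levels of the germline genes was not tested. In bulk RNA, a level spread over all cells and a high level in few cells cannot be told apart. Replicate 1 stood apart from the other libraries: without it, the count of genes with spread beyond counting noise, described further on, was 26 in place of 1653.

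The promoters of 4 germline genes are shown because they belong to the genes with the highest and the lowest levels, and because 1 of them, Sycp3, holds more E-boxes than any other of these promoters. They come from RefSeq, on build GRCm38.p6 of the C57BL/6J reference strain rather than the Cast or 129 parents, and run in the 5′ to 3′ direction of the gene over 250 bases before and 50 bases after its start. Capitals mark the E-box CACGTG, which reads the same on both strands, and the E2F-type motif GCGGGA on either strand (TCCCGC where it lies on the other strand); the motifs do not overlap one another.
Tex19.1, chr11:121145893-121146192, plus strand: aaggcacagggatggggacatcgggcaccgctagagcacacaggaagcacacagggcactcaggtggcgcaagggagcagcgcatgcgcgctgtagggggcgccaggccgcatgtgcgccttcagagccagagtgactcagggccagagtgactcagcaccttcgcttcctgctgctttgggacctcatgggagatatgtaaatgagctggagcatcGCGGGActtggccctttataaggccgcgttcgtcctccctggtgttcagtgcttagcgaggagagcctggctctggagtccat
Dazl, chr17:50293571-50293870, minus strand: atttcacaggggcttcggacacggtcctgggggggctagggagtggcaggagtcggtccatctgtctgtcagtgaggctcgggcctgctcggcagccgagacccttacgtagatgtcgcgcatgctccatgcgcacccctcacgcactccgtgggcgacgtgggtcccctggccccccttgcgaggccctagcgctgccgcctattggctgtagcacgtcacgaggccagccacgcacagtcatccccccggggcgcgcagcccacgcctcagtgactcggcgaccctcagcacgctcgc
Sycp3, chr10:88459337-88459636, plus strand: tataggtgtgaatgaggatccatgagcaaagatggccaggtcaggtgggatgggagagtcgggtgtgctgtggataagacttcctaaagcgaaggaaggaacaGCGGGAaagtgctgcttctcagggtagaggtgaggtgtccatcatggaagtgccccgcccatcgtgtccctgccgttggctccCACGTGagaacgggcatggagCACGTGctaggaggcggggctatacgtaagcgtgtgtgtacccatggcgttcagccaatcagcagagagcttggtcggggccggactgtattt
Tdrd1, chr19:56825959-56826258, plus strand, the most upstream of 3 listed starts: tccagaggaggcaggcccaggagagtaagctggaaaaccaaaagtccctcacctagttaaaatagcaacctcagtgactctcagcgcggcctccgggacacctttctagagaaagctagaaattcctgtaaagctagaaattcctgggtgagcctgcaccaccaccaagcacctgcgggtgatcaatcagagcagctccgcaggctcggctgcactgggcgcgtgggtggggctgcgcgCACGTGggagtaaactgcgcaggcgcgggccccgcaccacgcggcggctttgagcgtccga
The Tex19.1 promoter held 1 E2F-type motif, 33 bases before the start. The Dazl promoter held neither motif, although 28 CpG dinucleotides stood in its 300 bases. Sycp3 had E-boxes 64 and 43 bases before its start and an E2F-type motif 147 bases before it. The Tdrd1 promoter had an E-box 11 bases before the most upstream start.

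RefSeq windows were found for 9 of the 10 genes, all but Piwil2. An E-box lay in the promoters of 5 of these 9, Sycp1, Sycp3, Ddx4, Mael and Tdrd1, and in those of 8.10% of the 27018 genes with windows. The E2F-type motif lay in 5 of 9, Tex19.1, Sycp1, Sycp3, Ddx4 and Mael, and in 22.1% of all genes. Sycp1, Sycp3, Ddx4 and Mael held both, while Dazl, Stra8 and Prdm1 held neither. The longer form TCACGTG was found in 2 of 9 genes, against 4.29% of all genes, and the longer form GGCGGGAA in 1 of 9, against 2.52%. The motifs were chosen because MGA-MAX and E2F6 are known to bind germline gene promoters. Each motif contains a CpG, and these windows held a median of 20 CpGs, against 7 over all windows. The shares over all genes are thus not a like background, and nothing is read from the gap. A match is a description of letters in this window and not a binding site.

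CpG dinucleotides were dense in most of these promoters. The median over the 9 genes, with the most upstream window for Tdrd1, was 20 CpGs in 300 bases, and the median over all 32841 windows was 7. Ddx4 had the most, 38, with 72% G and C, and Stra8 the fewest, 10, with 55.7% G and C, whereas the median window had 52.7%. The most highly expressed isoform began at the RefSeq start for Sycp1, Mael, Prdm1 and Tex19.1, 16 bases from it for Dazl, 18 for Sycp3 and 12 for Stra8. For Ddx4 it began 165 bases upstream, so the printed or counted window is not centred on that start.

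**Figure D1:**
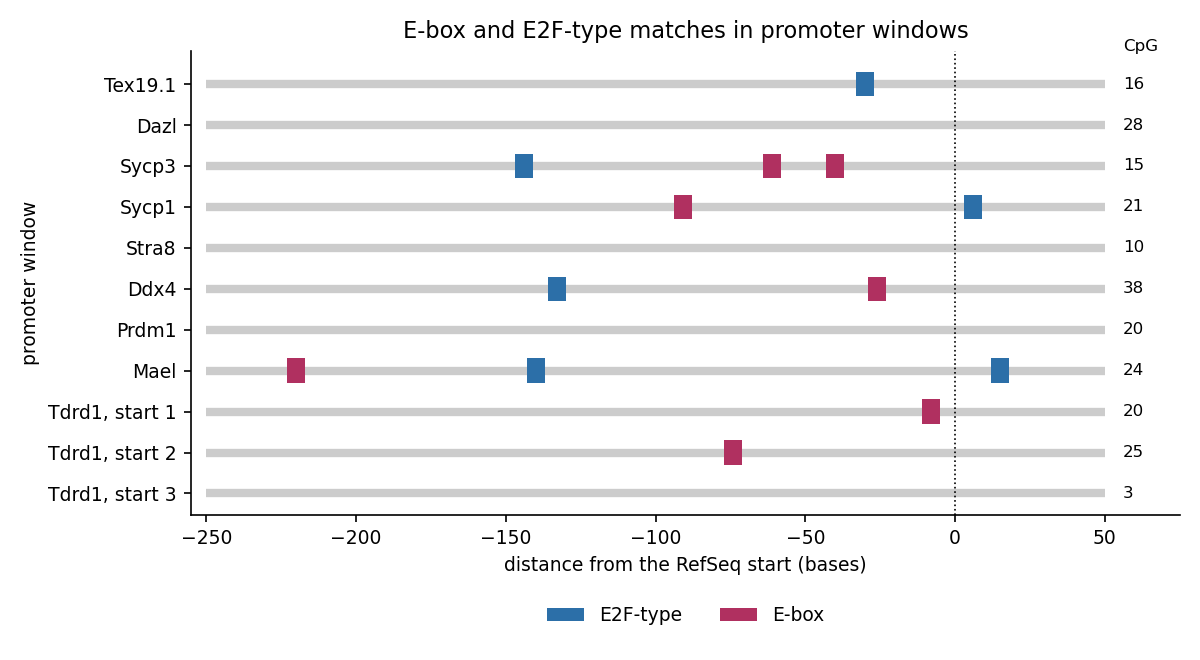
Positions of E-box and E2F-type matches (coloured boxes) in the 300-base promoter windows of 9 germline genes, in bases from the RefSeq start (x axis), with 1 row per window, 3 for Tdrd1, and the CpG count at the right. Sycp3 holds 2 E-boxes and 1 E2F-type match, and Dazl, Stra8 and Prdm1 hold none.

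Of the 10 germline genes, 9 stood at 1 TPM or more in every library, the level called expressed here, and Tdrd1 did not. The same level was reached by 23.6% of all 55536 genes and by 52.1% of the 22028 protein-coding genes; the genes were listed for expression in ES cells, so nothing is read from that gap. Their summed level was 203 ± 10.1 TPM, and Tex19.1 and Dazl together made up 69.3 ± 1.45% of it. The median of the 10 mean levels was 8.73 TPM, below the median of 19.7 TPM over the 11478 expressed protein-coding genes.

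**Figure D2:**
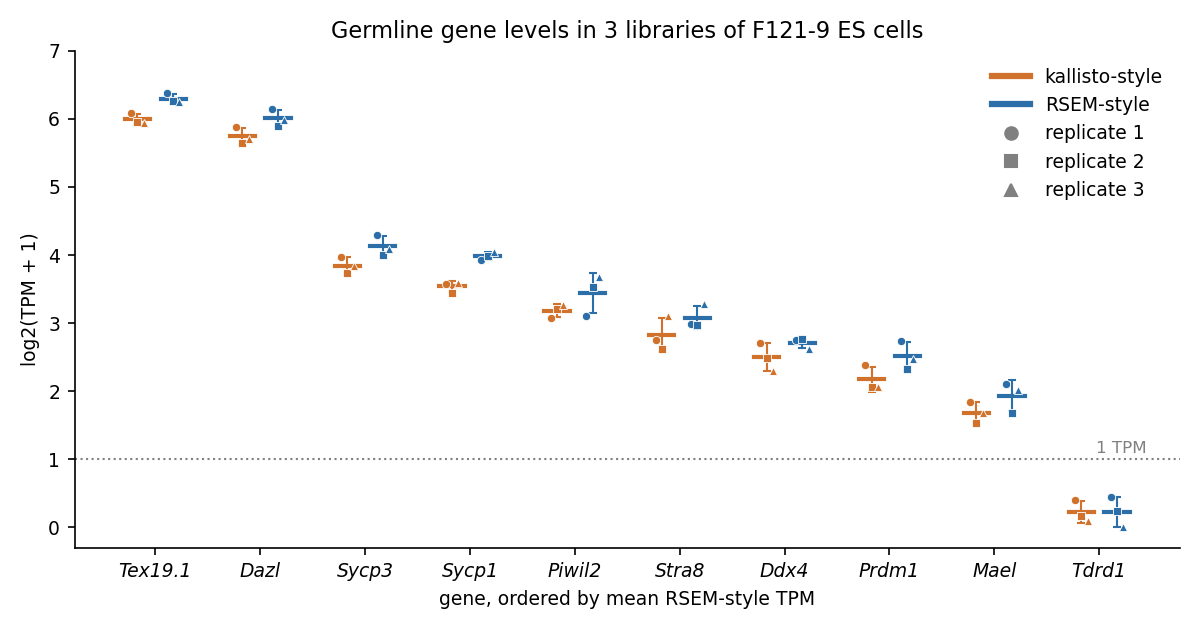
Level of each germline gene on the log2(TPM + 1) scale (y axis) in the kallisto-style and RSEM-style tables, with a point for each of 3 libraries and the mean ± SD. Tex19.1 and Dazl stand above the other genes and Tdrd1 lies near 0 in both tables.

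Dazl encodes an RNA-binding protein that controls the translation of germ cell mRNAs and is needed for germ cells to commit to gametogenesis. Dazl (ENSMUSG00000010592.9, mm10 chr17:50279395-50293636, minus strand) stood at 69.5 TPM in replicate 1, 58.7 TPM in replicate 2 and 62.05 TPM in replicate 3, with 1129, 978 and 1098 estimated counts. Its mean of 63.4 ± 5.52 TPM (SD, n = 3) lay above 78.2% of expressed protein-coding genes. Replicate 1 was highest and replicate 2 lowest. On the CPM scale, which divides counts by the library total and does not use length, Dazl had 108, 102 and 110 CPM in replicates 1, 2 and 3, so replicate 3 was then highest.

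Stra8 encodes a protein induced by retinoic acid that drives entry into meiosis. Stra8 (ENSMUSG00000029848.11, chr6:34920163-34939344, plus strand) stood at 6.90, 6.88 and 8.67 TPM in replicates 1, 2 and 3, with 64, 68 and 72 counts, a mean of 7.48 ± 1.03 TPM. Replicates 1 and 2 were nearly equal and replicate 3 was higher. Its mean lay above 27.2% of expressed protein-coding genes.

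Sycp3 and Sycp1 encode structural proteins of the synaptonemal complex. SYCP3 lies in the lateral elements along the chromosome axes, and SYCP1 forms the transverse filaments that link the axes of paired homologues. Sycp3 (ENSMUSG00000020059.9, chr10:88459569-88473236, plus strand) had 18.62, 15.02 and 16.03 TPM in replicates 1, 2 and 3, from 129, 103 and 114 counts. Sycp1 (ENSMUSG00000027855.13, chr3:102818499-102936100, minus strand) had 14.3, 14.8 and 15.5 TPM, from 216, 220 and 224 counts. Their means were 16.6 ± 1.86 TPM for Sycp3 and 14.9 ± 0.633 TPM for Sycp1, so their ranges overlapped. Sycp3 was highest in replicate 1, Sycp1 in replicate 3.

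The level of Sycp3 is uncertain. Its last exons overlap those of Chpt1, a gene of phospholipid synthesis on the opposite strand, by 660 bases between 88469546 and 88473236. Of the 3 Sycp3 transcripts, 57.8% of Sycp3-202, 56.5% of Sycp3-203 and 47.0% of Sycp3-201 lies in shared bases. Chpt1 was at 37.4 ± 2.30 TPM. The strand setting of the quantification is not given in the sources used here, so reads of both genes may not have been told apart. In the RSEM-style tables the estimated counts of Sycp3 were whole numbers in each library. The same held for all 10 genes and for 86.1% of expressed protein-coding genes. What whole counts mean for reads in the shared bases was not tested. No other of the 10 genes shares exon bases with another annotated gene.

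Prdm1 encodes BLIMP1, a transcriptional repressor required to specify primordial germ cells and also active in several somatic lineages. Prdm1 (ENSMUSG00000038151.13, chr10:44437177-44528501, minus strand) stood at 5.64, 4.00 and 4.57 TPM in replicates 1, 2 and 3, with 197, 142 and 168 counts and a mean of 4.74 ± 0.833 TPM. Replicate 1 was highest and replicate 2 lowest. Its mean lay above 18.4% of expressed protein-coding genes.

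Tex19.1 encodes a mammal-specific protein needed for meiotic chromosome synapsis and known to restrain retrotransposons in germ cells, ES cells and placenta. Tex19.1 (ENSMUSG00000039329.8, chr11:121146143-121148319, plus strand) was the highest of the 10, at 82.0 TPM in replicate 1, 75.7 TPM in replicate 2 and 75.1 TPM in replicate 3, from 927, 834 and 858 counts. The mean of 77.6 ± 3.83 TPM lay above 82.1% of expressed protein-coding genes. Replicate 1 was again highest, and replicates 2 and 3 were close to one another. Its neighbouring paralogue Tex19.2, named after its value was seen, was at 6.01 ± 0.845 TPM.

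Piwil2, Ddx4, Mael and Tdrd1 act in the piRNA pathway and in nuage, the cytoplasmic granules where piRNAs are made. Piwil2 encodes MILI, a PIWI protein that binds and makes piRNAs. Piwil2 (ENSMUSG00000033644.5, chr14:70372477-70429383, minus strand) had 7.62, 10.5 and 11.8 TPM in replicates 1, 2 and 3, from 236, 263 and 286 counts, with a mean of 9.98 ± 2.14 TPM. Replicate 1, the highest library for most of the 10 genes, was the lowest for Piwil2.

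Ddx4 encodes the RNA helicase VASA, a long-used marker of germ cells. Ddx4 (ENSMUSG00000021758.14, chr13:112598333-112652475, minus strand) had 5.73, 5.81 and 5.15 TPM in replicates 1, 2 and 3, from 123, 119 and 107 counts, and a mean of 5.56 ± 0.360 TPM. Its 3 libraries lay close together. Mael encodes Maelstrom, a nuage protein needed to silence transposons. Mael (ENSMUSG00000040629.8, chr1:166201201-166238747, minus strand) had 3.31, 2.20 and 3.06 TPM from 34, 22 and 31 counts, with a mean of 2.86 ± 0.582 TPM, and was lowest in replicate 2.

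Tdrd1 encodes a Tudor domain protein that binds PIWIL2 and holds nuage together. Tdrd1 (ENSMUSG00000025081.13, chr19:56826209-56870012, plus strand) was the only one of the 10 below 1 TPM, at 0.36 TPM in replicate 1, 0.18 TPM in replicate 2 and 0 in replicate 3. These rest on 13, 6 and 0 counts, and the sum of 19 counts has an exact 95% Poisson interval of 11.4 to 29.7. In replicate 3 the 0 counts of the RSEM-style table leave room for as many as 3, or 0.0871 TPM, and the kallisto-style table of the same library gave 5.00 estimated counts, or 0.0664 TPM. Interval and limit cover counting error only. Whether Tdrd1 RNA was detected in replicate 3 thus depended on the table.

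The order by level was Tex19.1, Dazl, Sycp3, Sycp1, Piwil2, Stra8, Ddx4, Prdm1, Mael and Tdrd1. In the tables with the columns that kallisto writes (kallisto-style) the order of the 10 means was the same. In the RSEM-style tables each gene was above the next in 3 of 3 libraries. For each pair the exact two-sided sign-flip permutation test gives 0.25, the smallest p that 3 libraries allow. The order was set from the means of these same libraries, so that test is no support for it. The largest steps were Dazl over Sycp3, 3.83-fold between means with a log2(TPM + 1) difference of 1.88 ± 0.03 (SD, n = 3), and Mael over Tdrd1, 15.9-fold between means with a log2(TPM + 1) difference of 1.71 ± 0.29. The fold over Tdrd1 rests on few counts, and was 29.2 without replicate 1 and 10.2 without replicate 3. In the RSEM-style tables the ranges of 3 neighbouring pairs overlapped: Sycp3 with Sycp1, Piwil2 with Stra8, and Ddx4 with Prdm1. The log2 differences of these pairs were 0.14 ± 0.19, 0.36 ± 0.21 and 0.20 ± 0.22, so the first and the last are no larger than their own spread. Tex19.1 stood above Dazl by 0.29 ± 0.06 on the log2 scale. The overlaps depended on the table. In the kallisto-style tables the ranges of Stra8 and Ddx4 also overlapped, with a log2 difference of 0.33 ± 0.41. Those of Sycp3 and Sycp1 did not, with 0.31 ± 0.08.

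Spread between the libraries was set against that of all genes and against counting noise. With edgeR's quasi-likelihood fit, each gene's dispersion was tested against the trend over 13391 genes, with Benjamini-Hochberg adjustment at 0.05. Of the germline genes 9 passed the count filter, all but Tdrd1, and 0 of 9 had a dispersion beyond the trend; the background was 0.0373% of genes. At an unadjusted p under 0.05 edgeR also gave 0, the smallest being 0.109 for Piwil2. The chi-square test against Poisson noise called 12.3% of the same 13391 genes and 0 of these 9. At an unadjusted p under 0.05 it gave 1 of the 9, Piwil2, and 23.4% of all genes. Piwil2 had a variance 3.98 times the counting variance (chi-square test over all genes, adjusted p = 0.110), and its adjusted p was 0.964 without replicate 1. Prdm1 followed at 2.44 times (adjusted p = 0.299). Tex19.1 was lowest, at 0.251 times, and Sycp1, Sycp3, Mael, Stra8 and Ddx4 also lay below the counting variance.

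**Figure D3:**
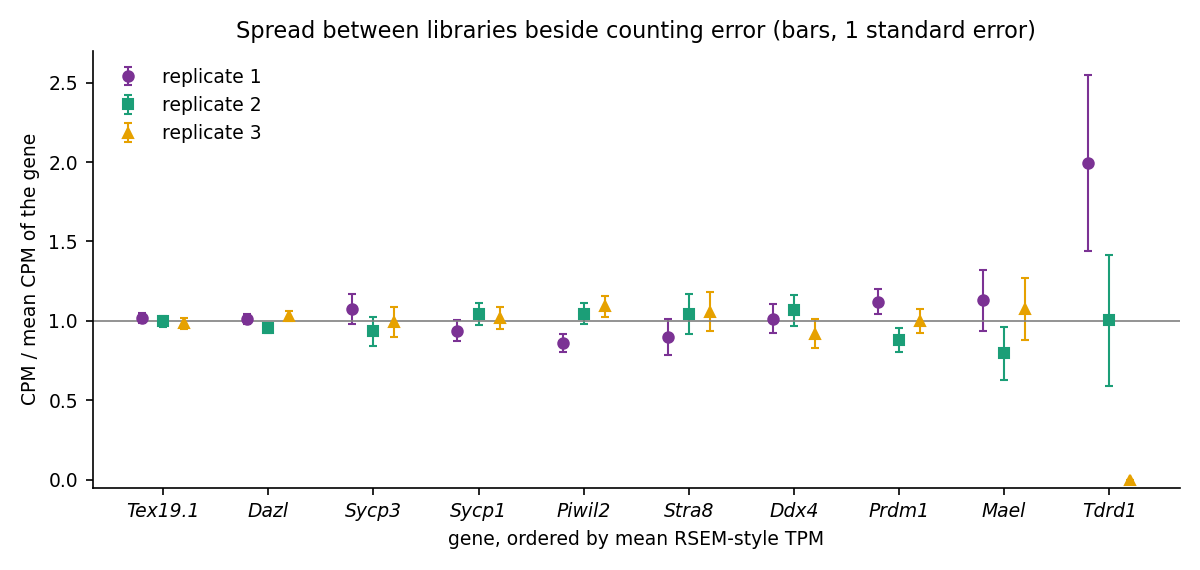
CPM of each germline gene in each library divided by its mean over the 3 libraries (y axis), with 1 point per library and bars of 1 standard error from counting alone. Piwil2 lies below its mean in replicate 1 and above it in replicate 3, and Prdm1 lies above its mean in replicate 1.

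In TPM the coefficient of variation over the 3 libraries ran between 4.25% for Sycp1 and 21.4% for Piwil2 among the 9 expressed genes. The median over expressed protein-coding genes was 7.88%, and Tex19.1, Sycp1 and Ddx4 lay below it. Mael had 20.4% in TPM. Counting noise applies to counts and is better set against CPM. In CPM Mael had 17.9% and Piwil2 12.2%, where counting noise alone gives 18.6% and 6.18%. By TPM, 5 of the 9 expressed genes were highest in replicate 1, 1 in replicate 2 and 3 in replicate 3. Among all expressed genes 49.5% were highest in replicate 1, 24.9% in replicate 2 and 25.6% in replicate 3. The shares for the 9 genes, 5, 1 and 3, thus lay near those of all expressed genes.

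The 2 kinds of table, made from the same libraries, gave lower values in the kallisto-style than in the RSEM-style tables for 29 of 30 pairs of gene and library, Tdrd1 in replicate 3 being the exception. Tex19.1 averaged 62.8 ± 3.41 TPM in kallisto-style and 77.6 ± 3.83 TPM in RSEM-style tables, and Dazl 52.9 ± 4.61 TPM in kallisto-style and 63.4 ± 5.52 TPM in RSEM-style tables. Sycp1 averaged 10.6 ± 0.623 TPM in kallisto-style and 14.9 ± 0.633 TPM in RSEM-style tables (SD, n = 3). The differences in log2(TPM + 1), kallisto-style minus RSEM-style, were tested with limma, and 0 of the 9 genes differed by at least 1 at an adjusted p under 0.05. Of all 14738 genes 13.1% did, 10.7% being higher in kallisto-style and 2.37% higher in RSEM-style tables. With no minimum difference all 9 were lower in the kallisto-style tables, as were 61.7% of all genes tested.

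For most of the 9 genes that gap was near the median over all genes tested. The gap was not shared by every gene, since 16.4% were higher in kallisto-style tables with no minimum difference. The median difference over the 14738 genes was −0.25 and that over the 9 germline genes −0.26. Sycp1 was farthest from the median over all genes, with −0.45 (SE 0.06, limma adjusted p = 0.00314), or −0.20 beyond it. Prdm1 came next at −0.34, or −0.09 beyond it, and Ddx4 was least, at −0.21 (limma adjusted p = 0.0466). Of the 9 genes, 6 or 7 kept an adjusted p under 0.05 in each other setting tried. Ddx4 and Piwil2 lost it with a pseudocount of 0.1, with no filter, and without replicate 2 or 3, where Ddx4 had 0.135 and 0.195 in limma's test. Mael lost it without replicate 1 or 3, and Stra8 without replicate 1 or 2. Such differences understate the change of low genes. The remaining genes, Tex19.1, Sycp3, Dazl, Piwil2, Mael and Stra8, lay between −0.30 and −0.25.

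The isoforms behind each gene were the same in both tables at the top, but their shares were not. For each of the 9 expressed genes, the transcript with the largest mean share of the gene's TPM was the same in both. Tex19.1 was nearly all Tex19.1-201, with 98.7 ± 0.588% in kallisto-style and 97.0 ± 1.48% in RSEM-style tables, and Ddx4-202 held 92.1 ± 13.2% in kallisto-style and 92.0 ± 13.9% in RSEM-style tables. Dazl-201 held 82.3 ± 0.822% in kallisto-style and 77.1 ± 4.84% in RSEM-style tables. Mael-201 took 82.5 ± 15.6% in kallisto-style and 93.5 ± 11.3% in RSEM-style tables, and Prdm1-201 took 74.7 ± 6.79% in kallisto-style and 83.7 ± 1.16% in RSEM-style tables.

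**Figure D4:**
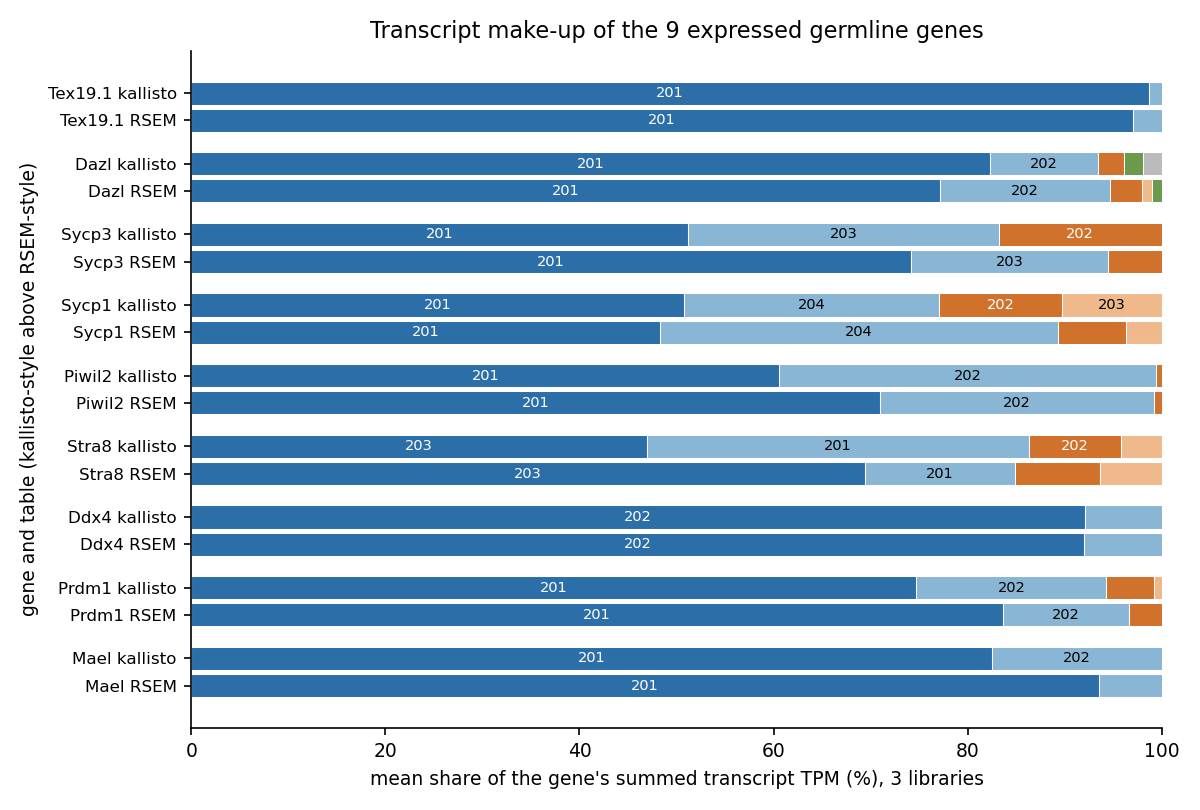
Mean share over 3 libraries of each expressed germline gene's TPM held by its transcripts (x axis, percent), stacked by rank of share, with the kallisto-style bar above the RSEM-style bar and the transcript number written in the larger segments. Tex19.1-201 fills 98.7% and 97.0% of its kallisto-style and RSEM-style bars, whereas Sycp1-201 fills 50.8% and 48.3%.

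Short transcripts, named after their values were seen, made up large shares of some genes. Sycp1-204, a transcript of 665 bases and 9 exons at the 5′ end of the gene, held 26.3 ± 0.821% of Sycp1 TPM in kallisto-style and 41.0 ± 4.94% in RSEM-style tables. Its share of the estimated counts was only 6.08% in kallisto-style and 9.60% in RSEM-style tables, since TPM divides by length. Full-length Sycp1-201 held 50.8 ± 2.45% of TPM in kallisto-style and 48.3 ± 1.08% in RSEM-style tables. Dazl-202, of 600 bases, likewise held 11.2 ± 2.24% of Dazl TPM in kallisto-style and 17.6 ± 2.43% in RSEM-style tables, but 2.05% of the counts in kallisto-style and 3.11% in RSEM-style tables. Piwil2-202, of 962 bases at the 5′ end, held 38.9 ± 3.14% in kallisto-style and 28.2 ± 9.94% in RSEM-style tables, and Piwil2-201 took 60.6 ± 3.77% in kallisto-style and 71.0 ± 10.9% in RSEM-style tables.

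Shares of some genes also varied between libraries, and those of Sycp3 and Stra8 are given here as examples. Sycp3-201 held 36.9%, 66.9% and 49.8% in replicates 1, 2 and 3 of the kallisto-style tables, against 64.0%, 82.5% and 75.9% in the RSEM-style ones. It was lowest in replicate 1 and highest in replicate 2 in both. Stra8-203 held 70.6%, 35.1% and 35.0% in replicates 1, 2 and 3 of the kallisto-style tables, against 72.5%, 70.2% and 65.6% in the RSEM-style ones. In replicate 2 of the kallisto-style tables Stra8-201, which begins upstream at base 34920163, held 64.9% and thus more than Stra8-203. That start lies outside the Stra8 promoter window described earlier. By estimated counts, Stra8-201 held 46.1 ± 22.9% and Stra8-203 44.9 ± 20.5% in the kallisto-style tables. In the RSEM-style ones Stra8-203 held 71.4 ± 5.59% of counts. Which Stra8 isoform led thus depended on measure and table. For Tdrd1 all counts of replicate 1 fell to Tdrd1-203 in the RSEM-style table and all counts of replicate 2 to Tdrd1-201, so no main isoform can be named.

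Across transcripts, limma tested 16 of the 34 and called 0 at a difference of at least 1, while it called 12.3% of all 28549 transcripts higher in kallisto-style and 6.89% higher in RSEM-style tables. Without the minimum, 11 of 16 had an adjusted p under 0.05, beside 63.0% of all transcripts, and of these 11 only 3 to 7 did when 1 replicate was left out. Sycp1-204 had the largest of these by size, −0.90 (adjusted p = 0.00482), then Dazl-202 with −0.82 (adjusted p = 0.00467). Stra8-201 ran the other way, at 0.67 (adjusted p = 0.00930), and lost that call without replicate 1.

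Further germline genes were read from 4 lists: the synaptonemal complex and meiotic axis, meiotic recombination and entry, the piRNA pathway and nuage, and germ cell specification. Of their 74 measured genes, 52 (70.3%) were expressed, beside 52.1% of protein-coding genes, with a median of 3.77 TPM, and 3 had 0 counts. The lists were chosen with earlier results of these data known, so nothing is read from that gap. With kallisto-style values 51 of 74 were expressed.

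In the synaptonemal list 10 of 13 were expressed. Syce2, which encodes a central element protein, led at 221 ± 8.79 TPM, and the axis genes Hormad1 and Hormad2 followed at 39.7 ± 2.71 and 34.8 ± 1.88 TPM. Sycp2, the partner of SYCP3 in the lateral element, stood at 0.293 ± 0.0751 TPM, and Rad21l, which encodes a meiotic cohesin subunit, was lowest at 0.0300 ± 0.0520 TPM. Sycp2 was named after its value was seen. Thus Sycp3 and Sycp1, at 16.6 and 14.9 TPM, lay between the extremes of their own complex.

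In the recombination list 15 of 24 measured genes were expressed, led by Hsf2bp at 153 ± 8.65 TPM, Rec114 at 74.6 ± 10.4 TPM and Psmc3ip at 46.6 ± 2.57 TPM. Each of these 3 shares exon bases with a gene on the other strand. Hsf2bp shares 54 with Rrp1b, Rec114 344 with Nptn and Psmc3ip 385 with Mlx. The doubt over strand given for Sycp3 thus covers them too, though each shares fewer bases than Sycp3 does. Among the markers, Pou5f1 shares 317 bases with Gm19553 and Fn1 292 with Apol7d, also on the other strand. Spo11, which encodes the enzyme that makes meiotic double-strand breaks, was lowest at 0.0467 ± 0.0503 TPM. Iho1, needed for those breaks, depended on the table, at 321 ± 96.4 TPM in kallisto-style and 2.00 ± 0.213 TPM in RSEM-style tables, a difference that limma called.

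In the piRNA list 11 of 18 were expressed. Fkbp6 led at 130 ± 7.15 TPM, then Tdrd12 at 60.9 ± 2.38 TPM and Gtsf1 at 15.6 ± 2.98 TPM, while Tdrd6, a Tudor gene of late spermatogenesis, and Spocd1 had 0 counts in every library. Exd1 differed between tables, with 4.52 ± 0.290 TPM in kallisto-style and 0.380 ± 0.122 TPM in RSEM-style tables, which limma called. The other PIWI genes, named after their values were seen, were low: Piwil1 stood at 0.957 ± 0.360 TPM and Piwil4 at 0.203 ± 0.0929 TPM, beside Piwil2 at 9.98 TPM.

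In the list for specification and germline RNA regulation 16 of 19 were expressed. Its highest, Ifitm3 at 239 ± 5.04 TPM, Dppa3 at 172 ± 11.6 TPM and Kit at 156 ± 16.6 TPM, are also known as genes of ES cells. Prdm14 and Tfap2c, the partners of PRDM1 in germ cell specification, stood at 42.0 ± 2.51 and 66.9 ± 4.72 TPM and so above Prdm1 at 4.74 TPM; Prdm14 was named after its value was seen. Nanos2, a regulator of male germ cells, had 0 counts.

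Stra8 answers to retinoic acid, and 10 of 18 genes of that pathway were expressed, beside 52.1% of protein-coding genes. Whether the pathway acts on Stra8 in these cells was not tested. Crabp1, which encodes a retinoic acid binding protein, was at 39.8 ± 3.81 TPM, and the receptors Rxrb and Rara were at 31.2 ± 4.30 and 29.0 ± 2.93 TPM. Rxrg and Cyp26c1 were at 0 counts. All 23 listed repressors of germline genes were expressed, beside that same 52.1%. Both lists were chosen with earlier results of these data known, so nothing is read from either count. The repressors had a median of 53.95 TPM, led by Cbx3 at 264 ± 3.65 TPM, Uhrf1 at 240 ± 21.2 TPM and Wdr5 at 164 ± 6.28 TPM. Dnmt3l, a cofactor of de novo DNA methylation, was lowest at 2.01 ± 0.317 TPM.

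Of the 88 genes of these lists that passed the count filter, edgeR called 0 for dispersion after adjustment and 3 at an unadjusted p under 0.05, which 4.56% of all genes tested had. The chi-square test, with its background of 12.3% and its weight on replicate 1, called Hsf2bp and Rec114 among 17 recombination genes tested, Fkbp6 among 14 piRNA genes, and Kit, Dppa3 and Tfap2c among 15 specification genes. It called Rara and Dhrs3 among 10 retinoic acid genes and 8 of 23 repressors: Kdm5c, Uhrf1, Ehmt2, Dnmt1, Rybp, Setdb1, Dnmt3a and Mga. Of the 9 synaptonemal genes tested the chi-square test called 0 after adjustment and 1 without it. At an unadjusted p under 0.05 it gave 20 of all 88 genes, and 23.4% of all genes tested. The chi-square test detects smaller relative spread where counts are high. The 12.3% is thus not a like background for a single list, and nothing is read from the count of any list. Among the markers the chi-square test called Pou5f1, Sox2, Nanog and Esrrb, and Fn1.

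**Figure D5:**
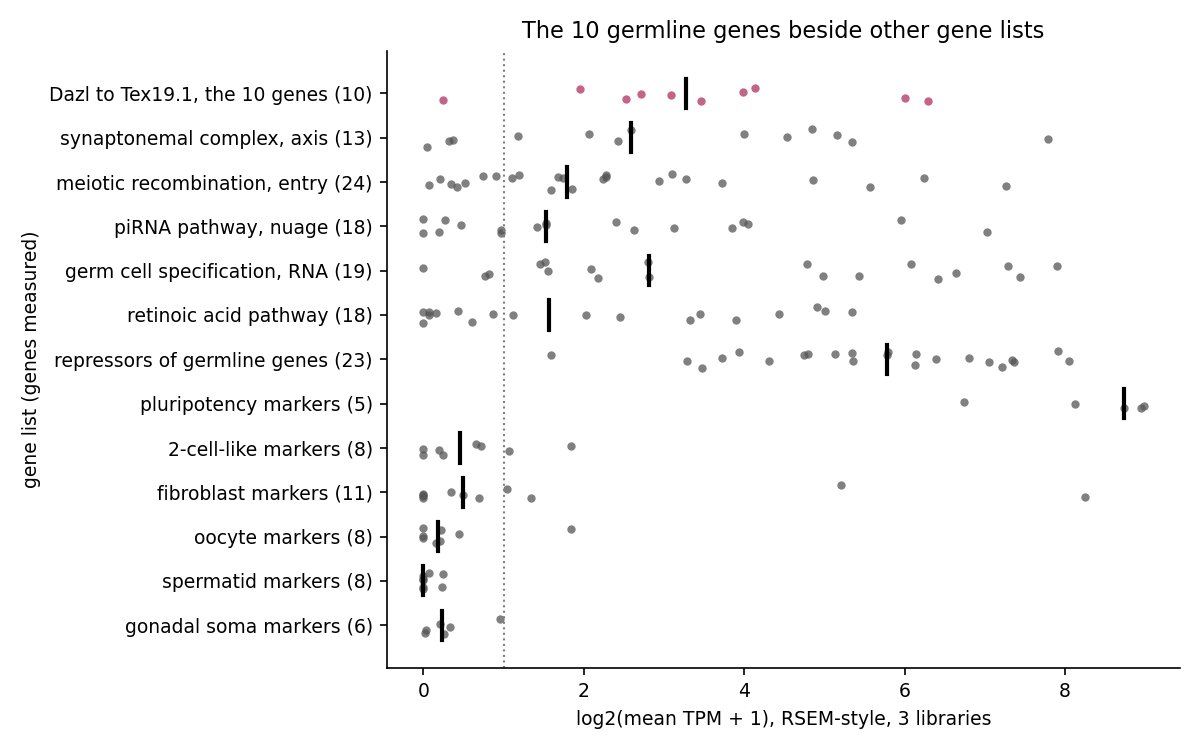
Mean RSEM-style level over 3 libraries on the log2(TPM + 1) scale (x axis), 1 point per gene, for the 10 germline genes, the related lists and the marker lists, with a bar at each median and a dotted line at 1 TPM. The 10 germline genes lie between 0.18 and 77.6 TPM with a median of 8.73 TPM, and all 23 repressor genes lie right of the line.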

How the data were processed

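Total RNA of 3 F121-9 libraries, 1 group, was analysed from 1 gene table and 2 transcript tables per library, on mm10 with GENCODE M21 per the file headers and the labels. The authors deposited estimated counts (expected counts) per gene and transcript, which are not normalized, and TPM values scaled over all features of a table, spike-ins included. Per the file headers, 1 transcript table and the gene table carry RSEM's column names, and the other transcript table carries kallisto's. The software, its versions and whether strand was used are, for these tables, not given in the sources used here; strand-specific signal tracks and FPKM columns were not used. Columns of other samples numbered 0.

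Symbols, types and exons came from the M21 annotation, and promoters from RefSeq. The 10 genes, the lists and the tests were chosen with earlier results of these data known. Named are the 10 genes, the 3 highest and the lowest gene of each list, each list gene that passed a test over all genes, the main isoform of each gene, and 4 pluripotency genes. Sycp2, Piwil1, Piwil4, Prdm14, Tex19.2, the genes that share exons with a named gene, and transcripts other than the main isoforms were named outside this rule, after their values were seen. Of the listed genes 2 had no row.

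RSEM-style libraries held 10610782, 9765384 and 10175403 counts in all, in replicates 1, 2 and 3, and 10425623, 9575747 and 9974983 in genes, and kallisto-style libraries 19156106, 17717726 and 18471552. Spike-ins and tRNA rows, stayed out of library sizes and tests. A count of 0 allows 3 counts, or 0.288, 0.313 and 0.301 CPM.

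Counts were rounded and fitted in edgeR 4.0.16 (R 4.3.3) with TMM, filterByExpr at a minimum count of 10 and an intercept-only quasi-likelihood model. Spread was also set against Poisson noise by a chi-square test. Tables were compared with limma 3.58.1 on log2(TPM + 1) with a pseudocount of 1, for features of at least 1 TPM in either table in all libraries, and calls needed a difference of at least 1. Adjustment was Benjamini-Hochberg over all features at 0.05. Motifs and levels were computed in Python 3.11.15 with pandas 2.3.3 and scipy 1.17.1. Each test across genes was first tested on simulated data. Alternatives were other thresholds, scalings, filters, pseudocounts, longer motifs, the other table and leaving out each replicate.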

Additional observations from a re-analysis of the deposited data

How the results depend on the processing

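The count of 9 expressed germline genes was the same under each threshold, table and left-out replicate tried. The summed level of 203 TPM became 165 TPM in the kallisto-style tables and 214 TPM when rescaled over endogenous genes, and ran between 197.9 and 207.9 TPM without single replicates. With no filter on low counts, the chi-square test called 1 of 10 genes, Tdrd1 (adjusted p = 0.0330), on 19 counts, and 6.48% of all genes. With no minimum difference limma called 9 genes (78.1% of all) and 11 transcripts (63.0% of all), by construction, and a pseudocount of 0.1 called 2 of 16 transcripts, Sycp1-204 and Stra8-201 (19.9% of all). The median share of the main isoform was 92.5% of counts, against 77.1% of TPM, and ran between 75.3% and 79.8% without single replicates. The longer E-box lay in 2 genes and the longer E2F-type motif in 1. The cause of other changes was not tested. Of the values of single genes, 242 stayed within their spread or on their side of the threshold, 15 moved and 9 newly passed it, all with no minimum difference. A gene's difference between the tables counted as unchanged while it stayed below the minimum of 1. This held also where Ddx4, Piwil2, Mael or Stra8 lost an adjusted p under 0.05. Sign was checked only for 54 such differences, and 0 changed. Over all genes, the dispersion test called 5 genes, with 2 to 34 over the alternatives, and the chi-square test called 1653, with 26 to 2756. The Tdrd1 mean of 0.18 TPM was 0.5 times as large without replicate 1 and 1.5 times without replicate 3. At this depth, levels near or below that of Tdrd1 rest on few counts. The kallisto-style and RSEM-style values were compared within each library. No paired analysis between groups was possible because the libraries form 1 group, so no groups share replicate numbers.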
